A study of Xenopus tropicalis with 12 samples.

Results

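In hind limbs of Xenopus tropicalis tadpoles, 200 of 14320 genes tested (19921 in the count file) were induced by T3 in wild type (WT), were already higher in untreated TRα (-/-) animals, and rose again when the TRα (-/-) animals received T3. TRα is thyroid hormone receptor α and T3 is the active thyroid hormone. Poly-A RNA was sequenced from 4 groups of 3 libraries: TRα (-/-) with T3, TRα (-/-) without T3, WT with T3 and WT without T3. Treated tadpoles were kept in 10 nM T3 for 18 hours, the others received none, and the labels give stages 52 to 54 for every group. The study's text gives stage 54 for the untreated limbs of both genotypes. The labels give both genotypes the same parents, while the study's methods give crossed TRα (+/-) frogs for the TRα (-/-) animals and purchased frogs for WT; the TRα (-/-) animals lack TRα in all tissues, and the gene for TRβ is intact in all 4 groups. The 3 libraries of a group were made from 1 RNA preparation of several tadpoles. The SDs and tests therefore describe spread between libraries of a pool, and effects of genotype or T3 cannot be told apart from other ways in which 2 pools may differ, such as exact stage or how the limb was cut.

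Thyroid hormone receptors sit on DNA as heterodimers with retinoid X receptors. Without hormone they recruit corepressors and hold hormone-inducible genes down, and with hormone they exchange these for coactivators. Loss of a receptor can therefore be followed by release of repression (derepression) before hormone arrives, and by a weaker induction once it does. In tadpoles the hind limb is among the first organs to respond to T3, through growth and patterning of a new limb, and TRα is the main receptor there before metamorphosis.

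The 200 genes were chosen by their mean expression in the 4 groups, in counts scaled to a common library size (CPM, with TMM scaling factors), with 0.1 CPM added before taking log2. The rule asked for a highest group mean of 2 CPM or more and for 3 differences. WT with T3 had to exceed WT without T3 by 2 or more on the log2 scale, TRα (-/-) without T3 had to exceed WT without T3 by 1 or more, and TRα (-/-) with T3 had to exceed TRα (-/-) without T3 by 1 to under 2. These differences selected the genes and are given below as a description. Counts of genes called in them stand only beside the share of all genes called, and nothing is read from them. The order of the 3 untreated or knockout groups and a larger T3 change in WT than in TRα (-/-) follow from the rule itself.

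The file identifies genes by Ensembl ID alone. The name table used here holds 28858 entries, of which 0 carry an Ensembl ID, and 0 of the 19921 IDs matched it. The genes are therefore described by ID and by their position on the scaffolds of the JGI 4.2 assembly. Neither the knocked-out gene nor the markers of limb tissue and other cell types could be looked up, and the lists of T3 response, cell cycle, Wnt and matrix genes were not analysed here. In bulk RNA, a change in the share of cells of a type and a change in RNA per cell cannot be told apart.

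Across the 200 genes, the median level was 23.2 CPM in TRα (-/-) with T3 (quartiles 8.38 and 51.4), 8.95 CPM in TRα (-/-) without T3 (3.12 and 20.4), 29.1 CPM in WT with T3 (11.6 and 69.2) and 2.68 CPM in WT without T3 (0.952 and 6.81). Over all 14320 genes tested the medians were 11.1, 10.8, 10.9 and 10.4 CPM in the same groups. In untreated WT limb 54 of the 200 were under 1 CPM, against 6 in untreated TRα (-/-) limb. With T3, 24 genes in TRα (-/-) and 37 in WT reached 100 CPM or more.

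**Figure D1:**
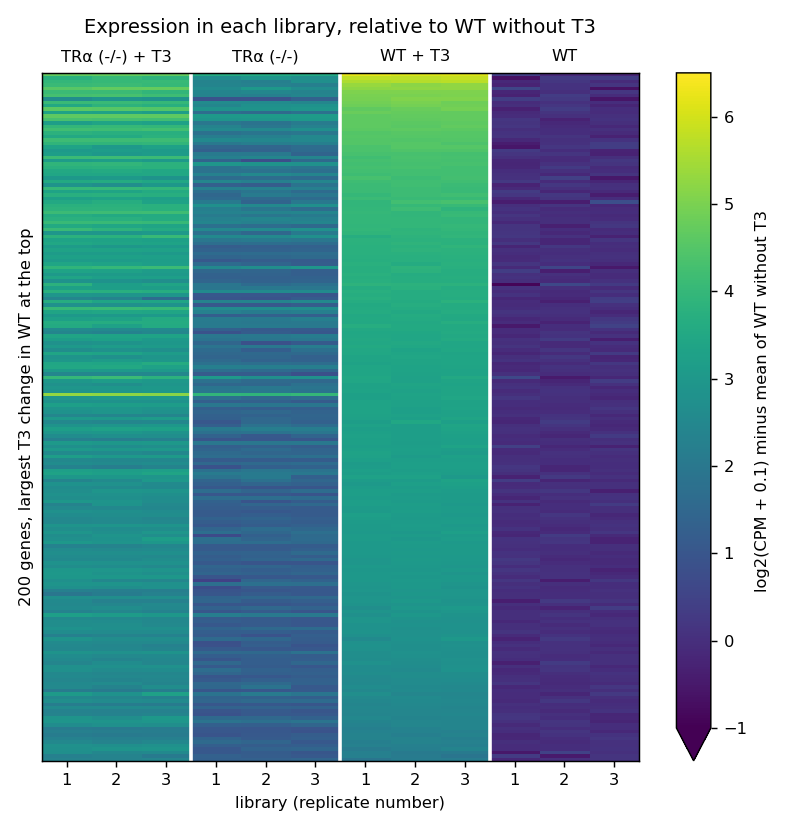
Each row is 1 of the 200 genes and each column 1 of the 12 libraries, with colour giving log2(CPM + 0.1) minus the gene's mean in WT without T3. Libraries of a group look alike, and TRα (-/-) without T3 lies between WT without T3 and TRα (-/-) with T3 in every row, as the rule requires.

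The median fold changes of the 200 genes were 9.81 for T3 in WT (range 4.19 to 68.7), 2.82 for TRα (-/-) over WT without T3 (2.0 to 15.4) and 2.54 for T3 in TRα (-/-) (2.01 to 3.94). Folds here and below are on the scale of CPM + 0.1. From untreated WT limb to T3-treated TRα (-/-) limb the median fold was 7.49, of which the genotype step was larger than the T3 step in 121 genes and smaller in 79. In 139 genes the steps lay within 1.5-fold of each other. The rule set the same lower bound for both steps but capped only the T3 step. These counts are therefore shaped by the rule, and nothing is read from them. In edgeR's quasi-likelihood test (adjusted p under 0.05 and 2-fold or more) all 200 were called raised by T3 in WT, where 22.8% of all genes tested were raised, all 200 raised by T3 in TRα (-/-) (7.14% of all genes) and all 200 higher in TRα (-/-) without T3 (13.0% of all genes). All 200 also had libraries that did not overlap between WT without T3, TRα (-/-) without T3 and TRα (-/-) with T3, in rising order, as had 18.1% of all genes. The T3 change was called smaller in TRα (-/-) than in WT for 197 of the 200 (16.6% of all genes). The rule used these contrasts, so the counts are no test of the 200 genes.

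A few genes carried much of the signal. Summed over the 200 genes, expression came to 17591 ± 300 CPM in TRα (-/-) with T3, 7143 ± 57 CPM in TRα (-/-) without T3, 21575 ± 190 CPM in WT with T3 and 2416 ± 2.7 CPM in WT without T3 (SD, n = 3). The 5 genes with the most CPM in WT with T3 made up 46.2%, 49.1%, 44.3% and 51.0% of these sums. As a share of all counts in the genes tested, without TMM scaling, the 200 took 1.65% in TRα (-/-) with T3, 0.617% in TRα (-/-) without T3, 2.88% in WT with T3 and 0.223% in WT without T3.

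The level in TRα (-/-) was placed on the log2 scale of the WT response, on which WT without T3 is 0 and WT with T3 is 1. TRα (-/-) with T3 lay at a median of 0.889 (quartiles 0.826 and 0.958) and TRα (-/-) without T3 at 0.465 (0.392 and 0.559). Single libraries of equal replicate number gave medians from 0.882 to 0.900 for TRα (-/-) with T3 and from 0.454 to 0.465 for TRα (-/-) without T3. Before any T3, 78 of the 200 genes were past the midpoint of the WT response in TRα (-/-), and the lowest was at 0.202. Both positions are built from the differences that the rule used. It asked for a genotype step of at least 1. Untreated TRα (-/-) therefore lies no lower than 1 divided by the gene's log2 T3 change in WT (median 3.29). The T3 step in TRα (-/-), of 1 to under 2, divided by the same change, sets the distance between the 2 positions. The rule thus shapes both positions and the count past the midpoint, so they are a description and nothing is read from them. Scaling by total counts alone lowered the medians to 0.774 with T3 and 0.378 without.

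**Figure D2:**
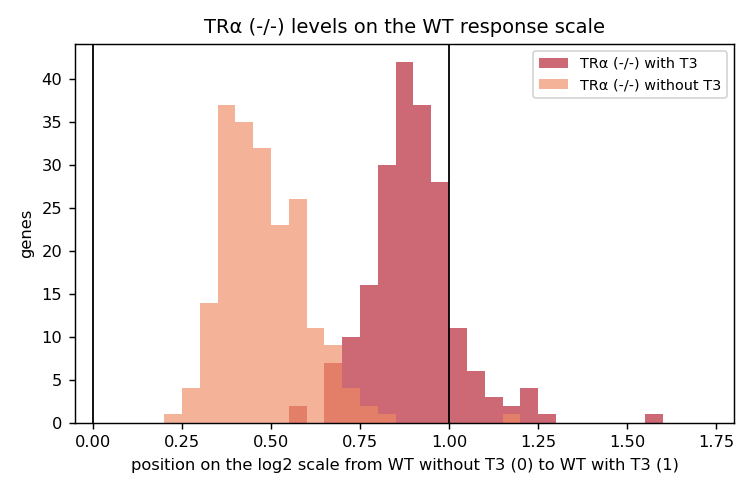
Histograms of the position of the 200 genes on the log2 scale from WT without T3 (0) to WT with T3 (1), in bins of 0.05, for TRα (-/-) with T3 (median 0.889) and TRα (-/-) without T3 (median 0.465). The untreated knockout sits near the middle of the WT response and the treated knockout mostly just short of its end, with 28 genes beyond it. The rule bounds both positions from below and the distance between them on both sides, so this placement is shaped by the rule.

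The comparison of the genotypes under T3 had a sign that the rule did not fix. It is also a description, since it is the genotype step plus the T3 step of TRα (-/-) minus the T3 change of WT and so is bounded by them. The median log2 difference between TRα (-/-) with T3 and WT with T3 was -0.37 (quartiles -0.61 and -0.13), where the median over all genes tested was -0.01. A level below WT was not particular to the 200. The other classes of genes induced 4-fold or more in WT, given below, had medians from -0.84 to -0.51. Among the 200, the mean was below WT with T3 in 172 genes and above it in 28. Scaling by total counts alone moved the median of all 14320 genes by -0.503 for this difference (the T3 changes moved by 0.122 in TRα (-/-) and 0.535 in WT), and with it 5 genes remained above WT, so the sign of the smaller differences depended on the scaling. edgeR called 16 of the 200 genes lower in TRα (-/-) with T3, 8.0%, where 3.77% of all genes were lower, and 1 gene higher, where 11.4% were higher. The count of lower genes became 71 with total counts alone. That scaling lowered the median difference over all genes, and the share of all genes called with it is not given here. Nothing is read from that rise. The libraries of the genotypes did not overlap, with TRα (-/-) lower, in 153 genes (38.3% of all genes tested) and with TRα (-/-) higher in 19 (38.0% of all genes), and they overlapped in the other 28. In the same 153 genes all 4 groups were separate, as in 10.5% of all genes. The rule had fixed the order of the other groups, so this count repeats the 153 and is no further result. By means, 146 of the 200 lay within 1.5-fold of WT with T3 (73.0%, against 67.8% of all genes) and 183 within 2-fold (91.5%, against 86.9%).

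**Figure D3:**
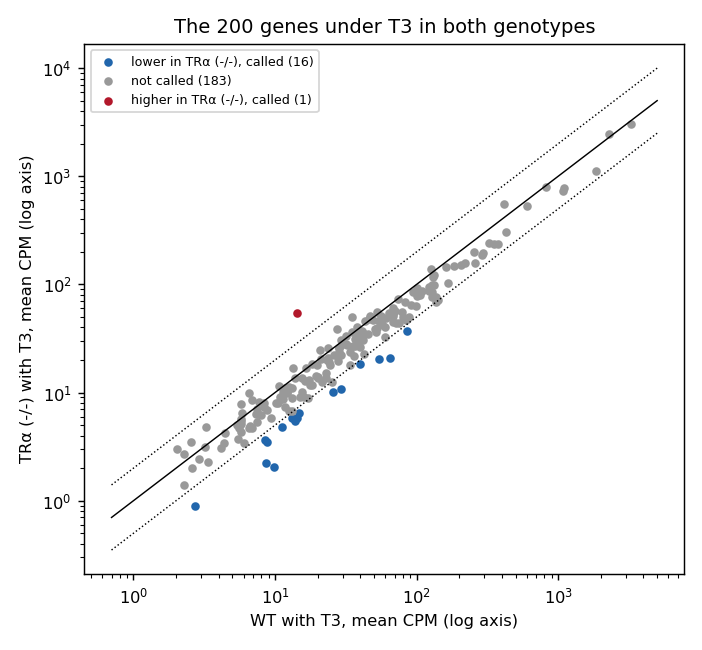
Mean CPM of each of the 200 genes in WT with T3 (x, log axis) and TRα (-/-) with T3 (y, log axis), with the line of equality (solid) and 2-fold lines (dotted). Most points lie just under equality, 16 are called lower and 1 is called higher in TRα (-/-).

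The largest T3 change in WT was that of ENSXETG00000010074 (GL172807.1, 536684 to 553542, - strand, 7 exon blocks). Its libraries held 20.2, 20.7 and 20.3 CPM in TRα (-/-) with T3, 9.47, 9.22 and 8.94 CPM in TRα (-/-) without T3, 57.6, 52.8 and 53.1 CPM in WT with T3 and 0.919, 0.605 and 0.562 CPM in WT without T3. No groups overlapped. T3 raised it 68.7-fold in WT and 2.20-fold in TRα (-/-), and it was 11.7-fold higher in TRα (-/-) than in WT without T3. With T3 it stayed below WT in TRα (-/-), at 0.376 times the WT level.

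ENSXETG00000017147 (GL172803.1, 138809 to 156148, + strand) followed with a log2 change of 5.71 in WT. It was almost silent in untreated WT limb, with 0, 3 and 4 counts per library, so the size of its change in WT rests on few counts. Its libraries held 27, 34 and 33 counts in TRα (-/-) without T3, and its mean was 2.23 ± 0.21 CPM in TRα (-/-) with T3 and 8.59 ± 0.29 CPM in WT with T3 (SD, n = 3). ENSXETG00000017676 (GL173625.1, 100204 to 115190, - strand) had 20.8 ± 0.82 CPM in TRα (-/-) with T3, 7.0 ± 1.3 CPM in TRα (-/-) without T3, 64.8 ± 3.1 CPM in WT with T3 and 1.20 ± 0.18 CPM in WT without T3. Both were among the 16 genes called lower in TRα (-/-) with T3.

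ENSXETG00000016340 (GL172637.1, 2860655 to 2869109, + strand) had 37.4, 38.4 and 36.1 CPM in TRα (-/-) with T3, 11.5, 10.8 and 10.5 CPM in TRα (-/-) without T3, 89.6, 81.9 and 84.4 CPM in WT with T3 and 1.77, 2.29 and 2.38 CPM in WT without T3. It too was called lower in TRα (-/-) with T3. ENSXETG00000016542 (GL180751.1, 9735 to 15069, - strand), with a log2 change of 5.16 in WT, came closer to the WT level. It averaged 15.2 ± 0.95 CPM in TRα (-/-) with T3, 3.99 ± 0.66 CPM in TRα (-/-) without T3, 22.8 ± 0.28 CPM in WT with T3 and 0.538 ± 0.26 CPM in WT without T3, and its genotype difference with T3 was under 2-fold.

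**Figure D4:**
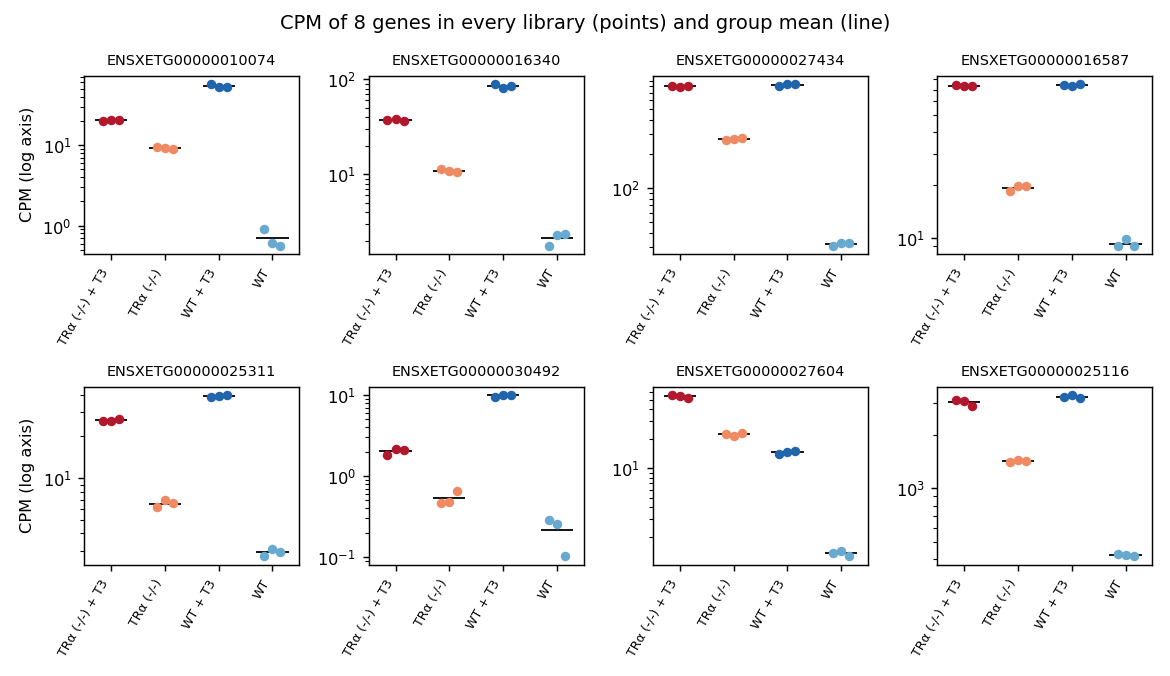
CPM in every library (points, log axis, each panel with its own range) and group means (lines) of 8 genes named in the text. In 7 of them WT with T3 is at or above TRα (-/-) with T3, while ENSXETG00000027604 is higher in both TRα (-/-) groups than in WT with T3.

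The genes with the largest genotype step without T3 were ENSXETG00000027604, ENSXETG00000010074, ENSXETG00000027434, ENSXETG00000003156 and ENSXETG00000027546. ENSXETG00000027604 (GL172650.1, 2259980 to 2263930, + strand, 6 exon blocks) was the only one of the 200 that was higher in TRα (-/-) without T3 than in WT with T3. Its libraries held 56.2, 54.4 and 51.7 CPM in TRα (-/-) with T3, 22.2, 21.4 and 22.9 CPM in TRα (-/-) without T3, 13.9, 14.5 and 15 CPM in WT with T3 and 1.36, 1.43 and 1.25 CPM in WT without T3. It was also the 1 gene called higher in TRα (-/-) with T3, by 3.73-fold. Under total counts alone this log2 difference was 1.39, and the excess of untreated TRα (-/-) over T3-treated WT was gone. Its exons share 46 bp with those of ENSXETG00000034152 on the same strand, so their reads may not be fully separated. That gene had 4.65 CPM in TRα (-/-) with T3, 2.37 CPM in TRα (-/-) without T3, 2.39 CPM in WT with T3 and 0.206 CPM in WT without T3.

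ENSXETG00000027434 (GL173091.1, 32810 to 33943, - strand) is a gene model of 1 exon block of 1134 bp whose span overlaps that of another gene. It had 800.1, 792.3 and 799.4 CPM in TRα (-/-) with T3, 269.4, 271.0 and 280.7 CPM in TRα (-/-) without T3, 797.3, 836.9 and 839.9 CPM in WT with T3 and 30.7, 32.7 and 32.6 CPM in WT without T3. The groups with T3 overlapped, and the other groups were far apart: it was 8.53-fold higher in TRα (-/-) than in WT before T3. With total counts alone its log2 difference between the genotypes with T3 was -0.56 in place of -0.05. ENSXETG00000003156 (GL172720.1, 1772085 to 1779837, - strand) had 31.0 ± 1.4 CPM in TRα (-/-) with T3, 12.6 ± 0.70 CPM in TRα (-/-) without T3, 41.3 ± 0.96 CPM in WT with T3 and 1.55 ± 0.28 CPM in WT without T3. ENSXETG00000027546 (GL175055.1, 342 to 3128, - strand) was a low gene, with 4.74 ± 0.20, 1.42 ± 0.054, 5.58 ± 0.51 and 0.108 ± 0.048 CPM in the same order of groups, and held 2, 5 and 4 counts in the libraries of WT without T3.

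The largest T3 changes in TRα (-/-), just under the 4-fold upper bound of the rule, were those of ENSXETG00000025311, ENSXETG00000006331, ENSXETG00000020123, ENSXETG00000027925 and ENSXETG00000016587. Their log2 changes with T3 ran from 1.92 to 1.98 in TRα (-/-) and from 2.98 to 4.99 in WT. ENSXETG00000016587 (GL172679.1, 3215738 to 3228170, + strand) reached the WT level under TMM scaling. Its libraries held 74.1, 73.0 and 73.6 CPM in TRα (-/-) with T3 against 74.3, 72.9 and 75.4 CPM in WT with T3, and they overlapped. With total counts alone its log2 difference from WT with T3 was -0.52 in place of -0.01. It had 19.3 ± 0.71 CPM in TRα (-/-) without T3 and 9.28 ± 0.45 CPM in WT without T3. The other 4 stayed below WT in every library with T3, with log2 differences from -0.74 to -0.41. Of these, ENSXETG00000027925 (GL173112.1, 793157 to 802147, - strand) averaged 21.6 ± 1.1 CPM in TRα (-/-) with T3, 5.61 ± 0.28 CPM in TRα (-/-) without T3, 36.2 ± 0.49 CPM in WT with T3 and 1.04 ± 0.24 CPM in WT without T3, and ENSXETG00000006331 (GL172724.1, 156768 to 169560, - strand) averaged 39.7 ± 2.1, 10.2 ± 0.13, 52.6 ± 0.70 and 4.0 ± 0.27 CPM in the same order.

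At the other end, 5 genes fell furthest short of the WT level under T3. ENSXETG00000030492 (GL173258.1, 270878 to 293037, - strand) had 1.83, 2.16 and 2.08 CPM in TRα (-/-) with T3, 0.461, 0.475 and 0.655 CPM in TRα (-/-) without T3, 9.36, 10.1 and 10.1 CPM in WT with T3 and 0.285, 0.255 and 0.102 CPM in WT without T3. Its level with T3 in TRα (-/-) was 0.214 times that in WT, and its position on the WT scale, 0.554, was the lowest of the 200. ENSXETG00000017147 and ENSXETG00000017676, described above, came next with log2 differences of -1.90 and -1.63. ENSXETG00000003528 (GL172640.1, 45350 to 60676, - strand, -1.5) was a low gene, with 3, 3 and 7 counts in WT without T3, and ENSXETG00000006456 (GL173753.1, 884 to 122734, + strand, 42 exon blocks, -1.45) had 10.7 ± 0.58 CPM in TRα (-/-) with T3 and 29.3 ± 0.83 CPM in WT with T3.

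Besides ENSXETG00000027604, the 4 genes furthest above the WT level under T3 were ENSXETG00000014032, ENSXETG00000017016, ENSXETG00000029922 and ENSXETG00000022298, with log2 differences from 0.52 to 0.61 that were under 2-fold. ENSXETG00000022298 (GL172653.1, 235863 to 246571, + strand) had 50.9, 48.8 and 50.9 CPM in TRα (-/-) with T3, 17.4, 16.8 and 17.3 CPM in TRα (-/-) without T3, 35.6, 34.7 and 34.6 CPM in WT with T3 and 6.94, 7.10 and 7.54 CPM in WT without T3. In each of the 4 all TRα (-/-) libraries with T3 were above those of WT with T3. Under total counts alone the differences were 0.01 to 0.11, at the edge of a change of sign.

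Levels of different genes were compared per length, as CPM per 1000 bp of summed exon length (RPKM). The median over the 200 genes was 16.3 RPKM in TRα (-/-) with T3, 6.01 RPKM in TRα (-/-) without T3, 20.6 RPKM in WT with T3 and 1.70 RPKM in WT without T3, beside medians from 5.65 to 5.73 RPKM over all genes tested. The chosen genes lay below the typical gene in untreated WT limb, near it in untreated TRα (-/-) limb and above it in both groups with T3. The rule asked for the rise from untreated WT limb to each other group, so this is a description. The 5 most abundant in WT with T3 were ENSXETG00000025116, ENSXETG00000024084, ENSXETG00000027434, ENSXETG00000020123 and ENSXETG00000011187. ENSXETG00000025116 (GL172638.1, 956730 to 960934, - strand) had 1881 RPKM in TRα (-/-) with T3, 878.5 RPKM in TRα (-/-) without T3, 2023 RPKM in WT with T3 and 261 RPKM in WT without T3. In CPM its libraries held 3132, 3079 and 2908 in TRα (-/-) with T3 against 3245, 3362 and 3200 in WT with T3, close but without overlap. Its exons cover 83 bp of ENSXETG00000030704, which had 0 counts in all 12 libraries.

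ENSXETG00000024084 (GL173124.1, 570663 to 576970, - strand) averaged 1118 ± 12 CPM in TRα (-/-) with T3, 451 ± 3.4 CPM in TRα (-/-) without T3, 1846 ± 14 CPM in WT with T3 and 199.8 ± 1.9 CPM in WT without T3. ENSXETG00000020123 (GL174019.1, 7631 to 15443, + strand) averaged 775 ± 9.4, 201 ± 5.6, 1094 ± 38 and 77.7 ± 2.2 CPM in the same order, and ENSXETG00000011187 (GL172766.1, 2139243 to 2145501, + strand) 725 ± 13, 356 ± 15, 1078 ± 43 and 117.5 ± 2.0 CPM. In these 3 genes every library of TRα (-/-) with T3 was below every library of WT with T3, by log2 differences from -0.72 to -0.50, all under 2-fold. Per length, they held 81.7, 46.4 and 51.8 RPKM even in WT without T3, above the median of all genes.

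With the other bounds met, 251 genes fell short only of the genotype step, 422 only of the lower bound on the T3 step in TRα (-/-), 37 exceeded only its upper bound, 6 fell short only of the T3 change in WT and 1 only of 2 CPM. At the genotype bound of 1, ENSXETG00000002956 was just inside at 1.002 and ENSXETG00000014420 just outside at 0.989. At the lower bound of 1 for T3 in TRα (-/-) the neighbours were ENSXETG00000004712 at 1.008 and ENSXETG00000006573 at 0.999, and at its upper bound of 2 they were ENSXETG00000025311 at 1.978 and ENSXETG00000009104 at 2.023. At the bound of 2 for T3 in WT, ENSXETG00000004697 lay at 2.068 inside and ENSXETG00000021439 at 1.956 outside. The least expressed gene kept was ENSXETG00000033437, with a highest mean of 2.274 CPM and with 0, 0 and 5 counts in WT without T3, and the next one left out was ENSXETG00000002217 at 1.317 CPM.

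Set among all 1046 genes with a T3 change of 4-fold or more in WT and at least 2 CPM, the 200 made up 19.1%. The 422 genes with a genotype step of 2-fold or more but a T3 change under 2-fold in TRα (-/-) made up 40.3%. Median levels in WT without T3 were 2.68 CPM in the 200 and 2.73 CPM in those 422. The median was 1.88 CPM in the 37 genes with the genotype step that were induced 4-fold or more in TRα (-/-). It was 6.58 CPM in the 251 genes that fell short only of the genotype step. The remaining classes, of 97 and 39 genes and both without the genotype step, had medians of 4.04 and 3.51 CPM. With T3 the medians in TRα (-/-) were 23.2 CPM in the 200, 16.5 CPM in the 422, 37.1 CPM in the 37 and 26.2 CPM in the 251. The median log2 difference of TRα (-/-) from WT, both with T3, was -0.37 in the 200. It was -0.51 in the 422, -0.76 in the 37, -0.53 in the 251, -0.84 in the 97 and -0.66 in the 39. The classes were cut on these means, so the values are a description.

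Gene structure was not used by the rule. The 200 genes had a median of 8 exon blocks (all genes tested 9), 1379.5 bp of summed exon length (all genes 1761 bp) and 9479 bp of gene span (all genes 14567.5 bp). Genes of 20 or more exon blocks made up 7.5% of the 200 and 17.3% of all genes, and those of 1 block 1.5% and 4.39%. For exon blocks the upper quartiles were 12 in the 200 and 16 in all genes, while the lower quartiles were 5 in each. The lower quartiles of exon length were 1021 bp in the 200 and 1137 bp in all genes. Those of gene span were 5835.8 bp and 6660.8 bp. The neighbouring classes of T3-induced genes had median exon lengths of 1634.5 bp (the 422), 2033 bp (the 37) and 1744 bp (the 251). These are descriptions across genes, and no test was run on them. Within the 200 the Spearman correlation of exon length with the log2 changes was 0.12 for T3 in WT, -0.04 for the genotype without T3, 0.01 for T3 in TRα (-/-) and -0.22 for the genotype with T3. Over all genes the same correlations were -0.06, -0.16, -0.12 and -0.18. The rule limited the range of the first 3 changes within the 200. The points share libraries and scaling.

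**Figure D5:**
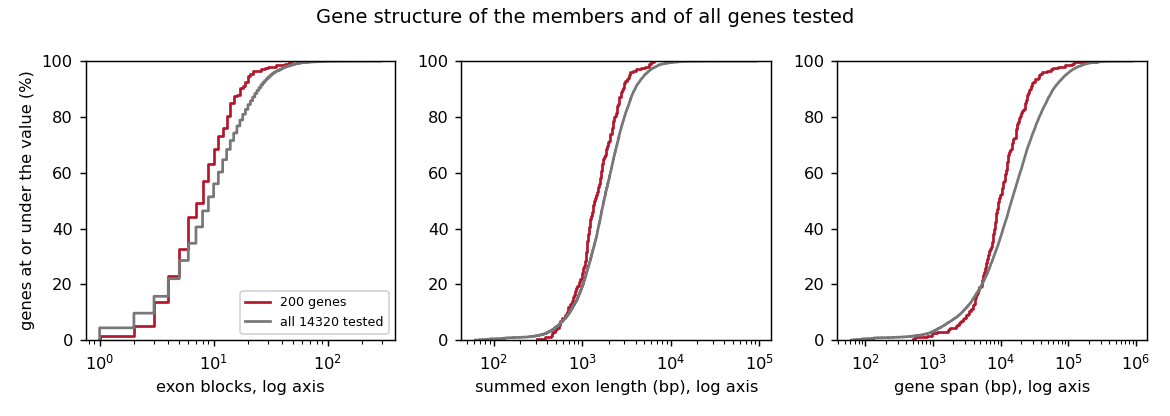
Cumulative share of genes (y, percent) at or under a given number of exon blocks, summed exon length and gene span (x, log axes), for the 200 genes and all 14320 genes tested. For exon blocks the curve of the 200 runs left of that of all genes in its upper part. The medians were 8 against 9 blocks and 1379.5 against 1761 bp of exon.

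The 200 genes lay on 163 scaffolds, with at most 4 on any, and 0 were mitochondrial. Of them 10 formed 5 pairs of direct neighbours. In 3 pairs the genes pointed away from each other, from the - and the + strand. The closest were ENSXETG00000007594 and ENSXETG00000007593, 428 bp apart on GL172658.1, and ENSXETG00000004711 and ENSXETG00000004712, 614 bp apart on GL172649.1. ENSXETG00000004711 averaged 48.7 ± 1.7 CPM in TRα (-/-) with T3, 23.4 ± 1.2 CPM in TRα (-/-) without T3, 61.2 ± 1.4 CPM in WT with T3 and 6.35 ± 0.44 CPM in WT without T3, and ENSXETG00000004712 averaged 35.7 ± 0.64, 17.7 ± 0.19, 41.9 ± 1.2 and 4.39 ± 0.25 CPM. The members of this pair thus had nearly the same fold changes, log2 3.25 and 3.23 for T3 in WT, 1.86 and 1.99 for the genotype without T3 and 1.06 and 1.01 for T3 in TRα (-/-). In the pair on GL172658.1 the same log2 changes were 3.12 and 3.10, 1.16 and 1.20, and 1.5 and 1.69. The rule set a lower bound on all 3 changes and capped the last, so members can be alike without being neighbours. Whether neighbours were more alike than members lying apart was not tested, and nothing is read from likeness or distance within a pair. The remaining divergent pair, ENSXETG00000009043 and ENSXETG00000030682, lay 14904 bp apart on GL173805.1 and differed more from each other, with log2 changes of 4.51 and 4.09 for T3 in WT, 2.31 and 1.86 for the genotype without T3 and 1.31 and 1.85 for T3 in TRα (-/-).

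The other pairs ran on the + strand. ENSXETG00000025242 and ENSXETG00000016267 (GL172891.1, 343369 to 442251) were long models of 46 and 49 exon blocks, 49498 bp apart. ENSXETG00000016267 had 2513, 2521 and 2394 CPM in TRα (-/-) with T3, 1081, 1090 and 1066 CPM in TRα (-/-) without T3, 2306.5, 2284 and 2224 CPM in WT with T3 and 411, 417 and 416 CPM in WT without T3, so that TRα (-/-) was the higher genotype with T3, by 0.12 on the log2 scale. ENSXETG00000025242 had 531 ± 4.7 CPM in TRα (-/-) with T3 against 606 ± 1.8 CPM in WT with T3, the opposite order, and under total counts alone both were lower in TRα (-/-). ENSXETG00000003433 and ENSXETG00000003434 (GL173153.1, 556138 to 571522) also differed from each other, with 32.8 ± 0.38 CPM in TRα (-/-) with T3 against 59.9 ± 0.37 CPM in WT with T3 for ENSXETG00000003433, and 40.6 ± 2.1 CPM in TRα (-/-) with T3 against 37.7 ± 1.1 CPM in WT with T3, overlapping, for ENSXETG00000003434.

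With T3, libraries of a group differed less in these genes than in all genes tested, and without T3 they differed more. The median coefficient of variation between libraries was 3.77% in TRα (-/-) with T3 (all genes 5.57%) and 6.16% in TRα (-/-) without T3 (5.85%). It was 3.19% in WT with T3 (4.52%) and 9.47% in WT without T3 (5.21%), where the 200 genes were lowest. Replicate 2 of WT with T3 was the library furthest from its fellows in a chi-square over all genes. It was the highest of its group in 33.5% of the 200 genes and in 31.2% of all genes. Such a share cannot show whether it stood apart in the 200, since over all genes it does not mark this library either. Replicate 1 of TRα (-/-) with T3 was the highest of its group most often, in 88 genes (44.0%, against 31.2% of all genes). The exons of 4 of the 200 overlap those of another gene, and 16 had a library with fewer than 10 counts.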

How the data were processed

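Hind limb poly-A RNA was made into TruSeq libraries, 3 from the RNA pool of each group, and sequenced as paired-end reads. The authors mapped reads to the Ensembl JGI 4.2 genome with STAR and counted them per gene with featureCounts (2.5.3a and 1.4.6-p3 in the submitters' processing notes; the study's methods name other releases). The file as deposited gives unnormalised read counts, with each gene's summed exon length in bp. Strand and multi-mapping settings are not given in the sources used here. Total counts per library ran from 32649742 to 52430305. All value columns were matched to a library.

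Genes were filtered with filterByExpr, scaled by TMM and fitted over all 12 libraries in R 4.3.3 with edgeR 4.0.16 (glmQLFit, glmQLFTest, 1 mean per group), with Benjamini-Hochberg adjustment over 14320 genes. The fit was tested on simulated data. Libraries of a group differed by more than sampling noise (chi-square per degree of freedom 1.86 to 10.7), and each counted as a separate replicate. Members, gene lists and tests were chosen with earlier results of these data known. Genes are named as the 5 at each extreme (each T3 change, the genotype step, the genotype difference with T3, RPKM), as neighbours on a scaffold, and as those nearest the bounds. Alternatives were DESeq2 1.42.0, its size factors, total counts, other filters, pseudocounts and a 5 CPM minimum, fitted changes, no fold threshold, the replicate block, the compared groups alone and leaving out each library.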

Additional observations from a re-analysis of the deposited data

Results flagged for a closer look

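The T3 change differed between genotypes. By the interaction test of edgeR (adjusted p under 0.05 and 2-fold or more) it was smaller in TRα (-/-) for 197 of the 200 genes, where 16.6% of all genes tested passed in that direction. The median log2 difference of the changes, TRα (-/-) minus WT, was -1.94 (range -4.96 to -0.58). The rule required a log2 change of at least 2 in WT and under 2 in TRα (-/-), which fixes this sign, so the count is no independent evidence. The 3 genes that did not pass were ENSXETG00000022298, ENSXETG00000002557 and ENSXETG00000014032.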

How the results depend on the processing

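Applied with other settings, the rule kept 185 to 198 of the 200 genes when 1 library was left out (195 to 204 genes in all), 197 with DESeq2 size factors and 167 of 204 with total counts alone. A pseudocount of 1 CPM left 124 genes, 119 of them among the 200, since low genes then change less. The position of TRα (-/-) without T3 (0.465) became 0.457 with DESeq2 size factors, 0.378 with total counts, 0.476 and 0.419 with pseudocounts of 0.01 and 1 CPM, and 0.457 to 0.468 over 12 fits leaving out a library. That with T3 (0.889) became 0.879, 0.774 and 0.877 with size factors, total counts and 1 CPM. Under total counts 0 genes were higher in untreated TRα (-/-) than in WT with T3, where TMM gave 1. With T3, the 16 genes lower in TRα (-/-) became 71 with total counts and 150 with the adjusted p alone, which also gave 18 higher genes in place of 1. DESeq2 gave 20 lower and 1 higher. The shares of all genes called under these settings are not given here, so nothing about the 200 is read from these counts. Libraries of equal replicate number did not deviate together (correlations of deviations from -0.14 to 0.19, 3 of 18 over 0.1), and with the replicate block the counts were 16 and 1. The other counts of called genes stayed within 1.5 times in all alternatives run, the lowest without a library being 193 of 200 genes raised by T3 in TRα (-/-), without replicate 3 of TRα (-/-) without T3. Requiring 10 counts in every library tested 184 of the 200. Leaving out a library does not leave out a pool, and the spread between pools was not measured.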

Other observations

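The genes next to the 200 on their scaffolds, themselves tested and outside the rule, numbered 294. Of these, 23.8% had a T3 change of 2-fold or more upward in WT, by means, beside 21.9% of all genes tested. The shares were 10.2% and 11.8% for the genotype without T3, and 6.12% and 6.71% for T3 in TRα (-/-). For the genotype with T3 they were 6.46% and 9.93%. Their median log2 T3 change in WT was 0.12, beside -0.05 over all genes. Beyond the 5 neighbouring pairs, 2 scaffolds held 4 of the 200 genes each, GL172640.1 and GL172737.1, and 64 of the 200 shared a scaffold with another.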
